A study of Mus musculus with 3 samples.

Results

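Wif1, Dkk1, Dkk2, Dkk3, Sfrp1, Sfrp2, Sfrp4, Sostdc1 and Bmp4 are 9 genes for secreted proteins that tune WNT and bone morphogenetic protein (BMP) signals between the dermis and the hair follicle. They were picked by symbol, and all were found among the 31053 genes of each count matrix. Their unique molecular identifiers (UMIs, each 1 captured transcript molecule) were followed through dermal papilla-like cells, fibroblast subsets and follicle keratinocytes. The study profiled single cells of dorsal skin from C57BL/6 mice aged 7 weeks, by 3' transcript sequencing, in 3 libraries with 1 library per group. The IMQ+celastrol skin received imiquimod, a Toll-like receptor agonist that gives psoriasis-like inflammation in mice, and celastrol, a plant triterpenoid. The IMQ skin received imiquimod, and the normal skin was a control given glycerin. Dose, route, days of treatment and the number of mice behind each library are not given in the sources used here.

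WNT ligands bind Frizzled receptors with the co-receptors LRP5 or LRP6 and keep beta-catenin in the cell, where it acts with TCF/LEF factors in the nucleus. Secreted inhibitors stop this outside the cell: WIF1 and the SFRP proteins hold the ligands themselves, while DKK proteins block the co-receptors. In the hair follicle the dermal papilla, a cluster of mesenchymal cells at the base of the follicle, sends and receives such signals, and BMP4 from the dermis is known to hold follicle stem cells quiet between growth phases.

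For 5 of the 9 members a promoter window from RefSeq (GRCm38.p6) was at hand, running from 250 bases before to 50 bases after the annotated start. The letters CTTTG followed by an A or T at both of the next bases, forms of the TCF/LEF motif, were searched on both strands, since several WNT inhibitors are known feedback targets of the pathway. Of the 32851 windows of all genes, 16.9% held a match. Among the 5 windows of members the 1 with matches was that of Dkk1. On the given strand a match to CTTTGAA begins 117 bases before the start, and a match to CTTTGTT begins 98 bases before it. The GENCODE span of Dkk1 begins farther upstream than the RefSeq start, so both matches lie inside that span. The 250 bases before the start are shown for Dkk1, with the matches in capitals, and for Wif1, Dkk2 and Bmp4, whose levels in dermal papilla-like and Slc26a7-high cells carry much of what follows. They are chr19:30549497-30549746 (minus strand), chr10:121033754-121034003 (plus strand), chr3:132085042-132085291 (plus strand) and chr14:46390670-46390919 (minus strand), in that order, 5′ to 3′.
Dkk1: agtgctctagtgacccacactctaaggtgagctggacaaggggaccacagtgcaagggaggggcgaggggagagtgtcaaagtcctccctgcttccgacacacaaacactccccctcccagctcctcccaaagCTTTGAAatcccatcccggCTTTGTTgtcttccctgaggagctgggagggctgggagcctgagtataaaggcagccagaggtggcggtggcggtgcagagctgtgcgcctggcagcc
Wif1: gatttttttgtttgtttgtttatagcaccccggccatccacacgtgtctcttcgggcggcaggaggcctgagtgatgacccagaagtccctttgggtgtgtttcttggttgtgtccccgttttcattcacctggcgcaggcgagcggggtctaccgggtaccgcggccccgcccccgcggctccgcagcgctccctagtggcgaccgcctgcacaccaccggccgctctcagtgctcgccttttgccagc
Dkk2: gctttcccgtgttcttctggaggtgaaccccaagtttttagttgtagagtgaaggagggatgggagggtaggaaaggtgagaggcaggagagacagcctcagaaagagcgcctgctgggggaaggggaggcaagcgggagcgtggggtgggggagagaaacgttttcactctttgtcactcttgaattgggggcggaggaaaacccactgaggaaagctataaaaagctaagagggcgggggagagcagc
Bmp4: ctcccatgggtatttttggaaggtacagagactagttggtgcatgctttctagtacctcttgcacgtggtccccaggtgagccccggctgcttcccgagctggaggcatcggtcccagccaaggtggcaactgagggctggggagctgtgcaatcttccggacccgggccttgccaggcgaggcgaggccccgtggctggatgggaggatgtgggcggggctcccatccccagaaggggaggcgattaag
A match describes these letters and does not show that a factor binds there.

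The members lie on separate chromosomes except Dkk2 and Sfrp2, which are both on chromosome 3. In GENCODE vM21 (GRCm38) all are protein coding. Wif1 spans chr10:121033960-121100650 with 10 exons, Dkk1 spans chr19:30545863-30549665 with 4, and Sostdc1 spans chr12:36314139-36318452 with 2. Reads of a 3' library fall near the end of a transcript, so the counts do not tell isoforms apart.

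The deposited matrices held 103267738 UMIs over 6777 barcodes for IMQ+celastrol, 119831835 over 8236 for IMQ and 77880943 over 10565 for normal. After filters 6092, 7495 and 9558 cells were kept, in the same order. The median kept cell was deeper in the treated libraries, with 10610 UMIs in IMQ+celastrol and 8840 in IMQ against 5736.5 in normal. Between 15 and 26 barcodes were shared by each pair of libraries. Levels are counts per 1000000 UMIs of the class (CPM), and brackets give 95% exact Poisson intervals, which cover counting error alone and leave out variation between cells and animals. With 1 library per group no difference could be tested, and a difference between libraries cannot be told apart from one between the mice, the cell preparations or the runs behind them. A ratio is called higher or lower here when it reaches 2-fold after adding 1 CPM to both sides, with at least 20 UMIs over both libraries and at least 20 cells in each. The IMQ library enters both comparisons, IMQ over normal and IMQ+celastrol over IMQ.

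Cells were clustered without the 9 members, so that no class was built on them. The dermal papilla-like cluster held 503 cells, all in the normal library, with a median of 5043 UMIs. It carried 9 of 9 dermal papilla markers, summing to 3420 CPM, and was led by Hhip, Wif1, F5 and Rspo3. Since every cell came from the normal library, the cluster may be that library and not a type. No cell of the treated libraries fell in it, so no ratio could be formed there. A pair of other clusters, led by Slc26a7, Pappa2 and Prlr, are called the Slc26a7 clusters. They held 394 IMQ+celastrol cells, 243 IMQ cells and 63 normal cells with median depths of 2606, 2225 and 2659 UMIs. Their dermal papilla markers summed to 777 CPM in IMQ+celastrol, 722 CPM in IMQ and 843 CPM in normal, against 119.9 CPM, 103 CPM and 284 CPM in fibroblast-like cells. The larger of them, cluster 16, showed 4 of 9 such markers and was shallow, and the smaller, cluster 38, showed 9 of 9 but no normal cell. Cluster 38 held 71 IMQ+celastrol and 21 IMQ cells, which were deep. They carried 2953827 of the 4032175 UMIs of the Slc26a7 clusters in IMQ+celastrol and 854976 of 1539868 in IMQ. Pooled levels of the Slc26a7 clusters in the treated libraries therefore rest mostly on these few cells. Cluster 16 was given no cell type name. Cluster 38 carried fibroblast markers but matched no subset. Both were kept apart from the fibroblast-like class, as was the dermal papilla-like cluster.

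Fibroblast-like cells numbered 2317 in IMQ+celastrol, 3267 in IMQ and 2840 in normal, with median depths of 8927, 8851 and 4239.5 UMIs. The subsets were the dermal sheath-like cluster 4 (Col11a1, Lrrc15), the papillary-like cluster 3 (Fmod), the adventitial-like cluster 12 (Dpp4), the Apod-high-like cluster 14 and the remodelling-like cluster 1 (Saa3, Tnc). Clusters 0, 2 (Thbs4, Cilp) and 7 (Coch, Mmp11) were left unnamed. Several subsets were unequally filled: cluster 7 held 33, 848 and 1 cells in IMQ+celastrol, IMQ and normal, cluster 1 held 333, 972 and 3, and cluster 0 held 308, 11 and 1207. T cell-like cells, which should lack the members, served as a gauge of free RNA. They numbered 345, 752 and 678, with median depths of 2522, 3218.5 and 2763.5 UMIs. Their highest share with a UMI of any member was 1.18% for Wif1 in the normal library.

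The members' UMIs came from different cells in the 3 libraries. Of all Wif1 UMIs in normal skin 76.1% lay in dermal papilla-like cells, and of Sostdc1 UMIs 52.3%. In IMQ+celastrol skin the Slc26a7 clusters held 55.4% of Wif1, 54.2% of Dkk2 and 64.9% of Bmp4 UMIs, against 36.9%, 13.4% and 34.2% in IMQ skin. The 71 IMQ+celastrol cells of cluster 38 alone held 44.3% of Wif1, 44.1% of Dkk2 and 51.5% of Bmp4 UMIs of that library. Sfrp4 lay almost wholly in fibroblast-like cells, with 97.6% of its UMIs in IMQ+celastrol, 98.4% in IMQ and 97.7% in normal.

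**Figure D1:**
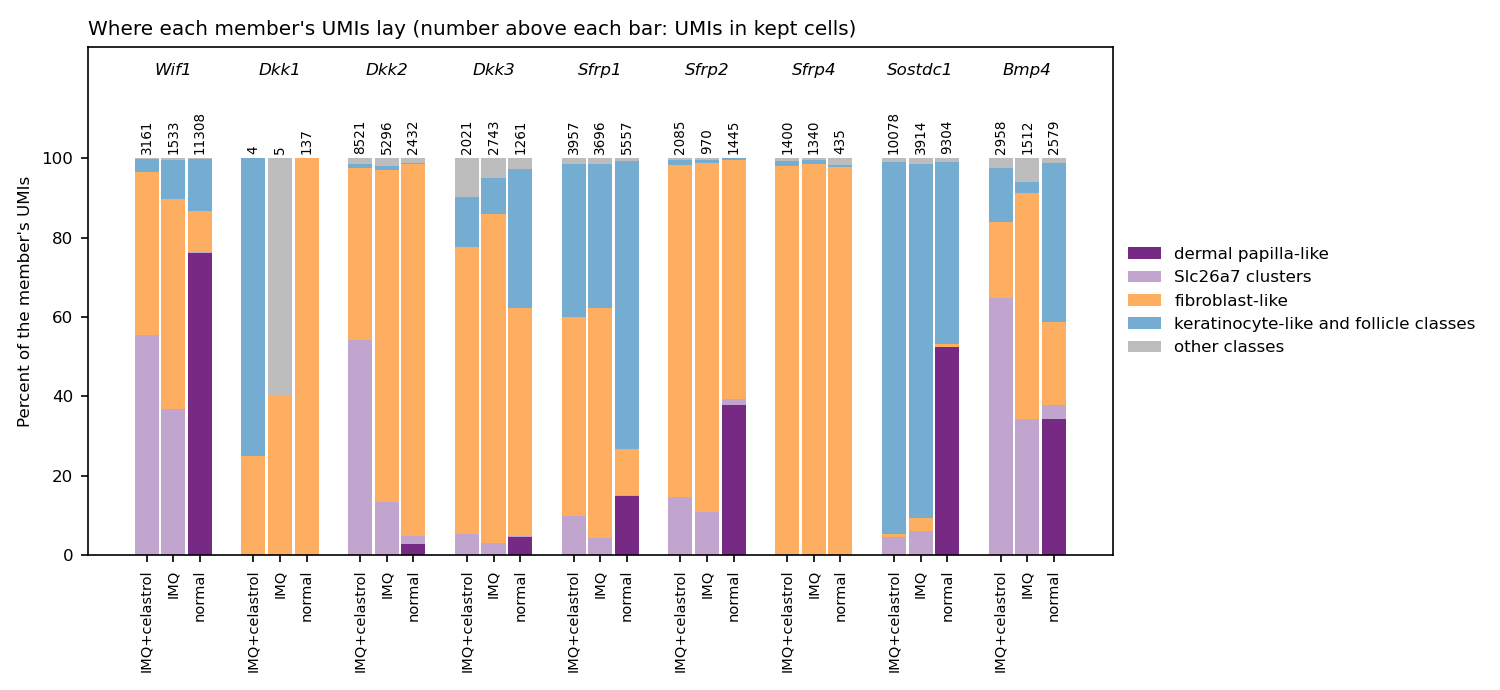
Share of each member's UMIs (percent, y axis) held by each cell class, with bars for IMQ+celastrol, IMQ and normal in that order and the member's UMI total above each bar. The dermal papilla-like share is seen in normal skin alone, where it held 76.1% of Wif1 UMIs, while the Slc26a7 clusters held 55.4% of them in IMQ+celastrol skin.

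WIF1 is a secreted protein that binds WNT ligands through its WIF domain. Across all kept cells Wif1 stood at 33.0 CPM in IMQ+celastrol (3161 UMIs), 14.3 CPM in IMQ (1533 UMIs) and 168 CPM in normal (11308 UMIs). IMQ was 11.8-fold lower than normal (11.1 to 12.4), and IMQ+celastrol was 2.31-fold higher than IMQ (2.18 to 2.46). In dermal papilla-like cells of the normal library Wif1 reached 3055 CPM [2990 to 3120] from 8605 UMIs. A UMI was seen in 89.1% of those cells, or 83.5% after each cell was thinned to 2000 UMIs, against 1.18% and 1.06% in T cell-like cells of that library. The median dermal papilla-like cell held 12 Wif1 UMIs and the highest held 216. In normal skin the next levels were 192 CPM in dermal sheath-like cells, 149 CPM in the Slc26a7 clusters and 102 CPM in inner root sheath or hair shaft-like cells, and neighbours in that order have overlapping intervals.

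In the Slc26a7 clusters Wif1 was 434 CPM in IMQ+celastrol [414 to 455], 367 CPM in IMQ [337 to 398] and 149 CPM in normal [99.3 to 216]. Both treated libraries lay above normal, with intervals that do not meet. The IMQ level was 2.46-fold the normal level (1.68 to 3.73), which rests on 28 normal UMIs and fell short of 2-fold with the members among the clustering genes (log2 ratio 0.30), and IMQ+celastrol was 1.18-fold the IMQ level (1.08 to 1.30). Counting in the dermal papilla-like cells adds 503 normal cells and no treated cell, so it moves the normal level alone. Normal then stood at 2873 CPM, and the order was the reverse. IMQ was then 7.83-fold lower than normal (7.19 to 8.54) and IMQ+celastrol 6.62-fold lower (6.29 to 6.97). These ratios set treated cells of the Slc26a7 clusters mostly against normal dermal papilla-like cells, and show no change within a cluster. A Wif1 UMI was found in 55.8% of IMQ+celastrol, 44.4% of IMQ and 25.4% of normal cells of the Slc26a7 clusters alone, and at 2000 UMIs in 45.6%, 35.8% and 17.4%. Basal keratinocyte markers summed to 388, 839 and 58.7 CPM in the same cells in that order, and remodelling fibroblast markers to 144, 2075 and 187 CPM; their part in the result was not tested.

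Over all fibroblast-like cells Wif1 was 58.4 CPM in IMQ+celastrol, 24.7 CPM in IMQ and 83.1 CPM in normal. It was lower in IMQ than in normal by 3.36-fold (3.07 to 3.68; log2 ratio -1.71), and higher in IMQ+celastrol than in IMQ by 2.36-fold (2.16 to 2.58; log2 ratio 1.21). The first call was lost when cells were averaged (-0.61), and the second was lost in 5 of 13 alternatives, with log2 ratios of 0.10 when called doublets were kept and 0.05 at resolution 2. Within the dermal sheath-like and papillary-like subsets the direction of IMQ against normal was the opposite. In dermal sheath-like cells, which wrap the follicle, Wif1 stood at 461 CPM in IMQ+celastrol [433 to 491], 502 CPM in IMQ [444 to 566] and 192 CPM in normal [180.0 to 204], so that IMQ was 2.62-fold higher than normal (2.28 to 3.004). IMQ+celastrol and IMQ did not differ beyond counting error there, at a ratio of 0.918 (0.801 to 1.06). In papillary-like cells Wif1 was 65.8 CPM in IMQ+celastrol, 178 CPM in IMQ and 26.5 CPM in normal, 6.73-fold higher in IMQ than in normal (4.97 to 9.17) and 2.70-fold lower in IMQ+celastrol than in IMQ (2.16 to 3.37). With at most 10% mitochondrial UMIs per cell the last of these was -0.75 on the log2 scale, short of 2-fold. The papillary-like IMQ cells numbered 99. Cluster 7, which has Coch and Dkk2 among its leading genes as the papillary-like cluster does, is not part of these ratios. It held 848 IMQ cells, with Wif1 at 57.2 CPM in IMQ and 61.1 CPM in IMQ+celastrol, the latter in 33 cells. The effect of counting it in was not tested.

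The makeup of the fibroblast-like class moved with these values. Dermal sheath-like cells held 74.5%, 32.9% and 87.8% of its Wif1 UMIs in IMQ+celastrol, IMQ and normal. They made up 11.6%, 2.63% and 25.3% of its cells, with 268, 86 and 718 cells. In IMQ skin 42.7% of fibroblast-like Wif1 UMIs lay in cluster 7, which held 26.0% of the cells and had 57.2 CPM. Dermal sheath markers in cluster 4 summed to 2467 CPM in IMQ+celastrol, 2574 CPM in IMQ and 5699 CPM in normal. How much of the difference over all fibroblast-like cells comes from the mix of subsets was not tested.

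**Figure D2:**
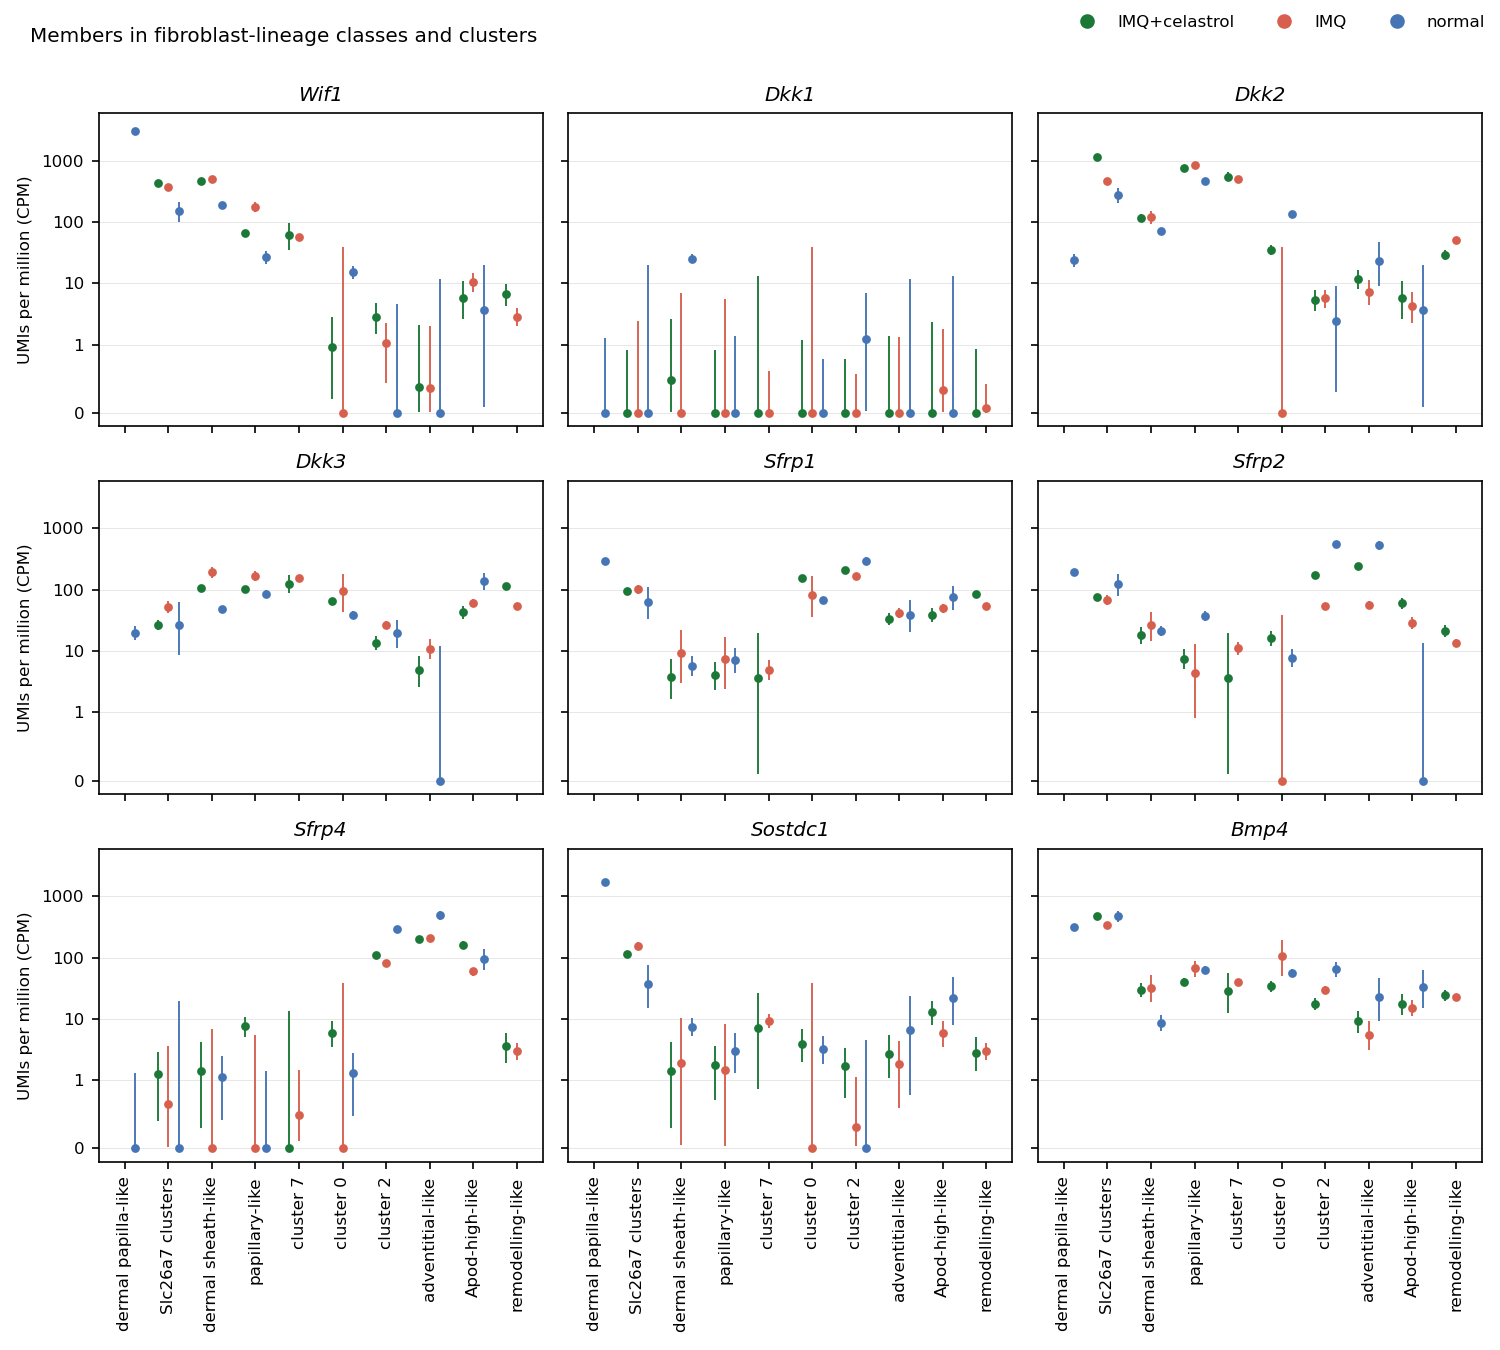
Level of each member (CPM, y axis on a scale that is linear below 1 and logarithmic above) in dermal papilla-like cells, the Slc26a7 clusters and fibroblast subsets, for IMQ+celastrol, IMQ and normal, with 95% exact Poisson intervals and points where a class holds at least 10 cells. Wif1 in dermal sheath-like cells sits at 461 and 502 CPM in the treated libraries, above 192 CPM in normal.

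SFRP1, SFRP2 and SFRP4 are secreted Frizzled-related proteins, which share the cysteine-rich WNT-binding domain of the receptors. Sfrp1 was carried by follicle keratinocytes and fibroblasts. In outer root sheath or bulge-like keratinocytes, the outer layer of the follicle that houses its stem cells, it was 349 CPM in IMQ+celastrol [292 to 415], 745 CPM in IMQ [668 to 829] and 493 CPM in normal [477 to 510]. The 3 intervals do not meet, but this class held only 19 IMQ+celastrol and 22 IMQ cells against 825 normal cells. Their median depths were 13910, 14163.5 and 6477 UMIs, and the IMQ over normal ratio of 1.51 (1.35 to 1.69) did not reach 2-fold. In normal skin this class held 62.1% of all Sfrp1 UMIs.

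In fibroblast-like cells Sfrp1 was 89.1 CPM in IMQ+celastrol, 65.3 CPM in IMQ and 45.8 CPM in normal, with ratios of 1.36 for IMQ+celastrol over IMQ and 1.43 for IMQ over normal. Cluster 2 was the fibroblast cluster with the most Sfrp1 in each library, at 214, 170.1 and 299 CPM in IMQ+celastrol, IMQ and normal. Dermal papilla-like cells of normal skin stood beside it at 296 CPM, with overlapping intervals. In upper follicle-like keratinocytes Sfrp1 was low, at 19.0 CPM in IMQ+celastrol, 22.5 CPM in IMQ and 3.39 CPM in normal, or 6.64-fold higher in IMQ than in normal (3.64 to 13.5), on 11 normal UMIs. With called doublets kept or at resolution 0.5 it no longer reached 2-fold, and its lowest log2 ratio was 0.08. That class was mostly cluster 10 in the treated libraries (412 and 324 cells) and cluster 24 in normal (407 cells). In suprabasal keratinocyte-like cells Sfrp1 went the other way, with 8.69 CPM in IMQ+celastrol, 4.46 CPM in IMQ and 15.5 CPM in normal, 3.47-fold lower in IMQ than in normal (2.45 to 4.89). The suprabasal class was filled from different clusters, with 323 of 327 IMQ+celastrol cells and 495 of 495 IMQ cells in cluster 9 and 375 of 380 normal cells in cluster 26. Its ratios of IMQ over normal, for Sfrp1 and other members alike, therefore set cluster 9 against cluster 26. Basal keratinocyte-like levels lay within 28.1 to 30.7 CPM in the 3 libraries.

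Sfrp2 was lower in IMQ fibroblasts and higher again in IMQ+celastrol fibroblasts. In fibroblast-like cells it was 78.5 CPM in IMQ+celastrol (1744 UMIs), 26.0 CPM in IMQ (852 UMIs) and 61.8 CPM in normal (868 UMIs). IMQ was 2.38-fold lower than normal (2.16 to 2.61; log2 ratio -1.22), and IMQ+celastrol was 3.02-fold higher than IMQ (2.78 to 3.28; log2 ratio 1.56). With 10 CPM added the IMQ over normal log2 ratio was -0.995, just short of 2-fold. The same order of IMQ below both others held within the subsets that carry most of it. In the adventitial-like cluster 12, fibroblasts marked by Dpp4 and Pi16, Sfrp2 was 241 CPM in IMQ+celastrol, 56.9 CPM in IMQ and 530.2 CPM in normal, 9.32-fold lower in IMQ than in normal (7.43 to 11.7) and 4.24-fold higher in IMQ+celastrol than in IMQ (3.55 to 5.09).

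The share of adventitial-like cells with an Sfrp2 UMI was 51.7% in IMQ+celastrol, 23.2% in IMQ and 58.8% in normal. At 2000 UMIs it was 26.4%, 9.33% and 42.5%, against at most 0.58% in T cell-like cells. In cluster 2 Sfrp2 was 175 CPM in IMQ+celastrol, 53.9 CPM in IMQ and 564 CPM in normal, 10.5-fold lower in IMQ than in normal (9.09 to 12.1). IMQ+celastrol exceeded IMQ there by 3.25-fold (2.86 to 3.69). Unlike the pooled level, IMQ+celastrol was lower than normal within cluster 2, by 3.23-fold (2.87 to 3.62), and within cluster 12, by 2.20-fold (1.84 to 2.62). Clusters 2 and 12 made up 18.9% and 12.6% of fibroblast-like cells in IMQ+celastrol, against 6.41% and 2.99% in normal. Their part in the pooled level was not tested. The Apod-high-like cluster 14 differed from these, with 95 UMIs (61.3 CPM) in IMQ+celastrol, 88 UMIs (29.0 CPM) in IMQ and none in the 100 normal cells, so IMQ was at least 2.66-fold higher than the normal floor of 3 UMIs. In dermal papilla-like cells of normal skin Sfrp2 was 194 CPM, and in the Slc26a7 clusters it was 75.1, 68.2 and 123 CPM in IMQ+celastrol, IMQ and normal.

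Sfrp4 was confined almost wholly to 3 fibroblast clusters, and none of its UMIs fell in dermal papilla-like cells. Over fibroblast-like cells it was 61.5 CPM in IMQ+celastrol, 40.2 CPM in IMQ and 30.2 CPM in normal, and neither ratio, 1.53 for IMQ+celastrol over IMQ or 1.33 for IMQ over normal, reached 2-fold. Within clusters 12 and 2 the treated libraries lay below normal. Adventitial-like cells had 202 CPM in IMQ+celastrol [185 to 220.2], 206 CPM in IMQ [189 to 223] and 488 CPM in normal [413 to 572], 2.37-fold lower in IMQ than in normal (1.97 to 2.85), with the treated libraries within each other's intervals. Cluster 2 had 112, 82.95 and 293 CPM in IMQ+celastrol, IMQ and normal, 3.53-fold lower in IMQ than in normal (3.02 to 4.12). The Apod-high-like cluster had 162 CPM in IMQ+celastrol, 59.3 CPM in IMQ and 94.4 CPM in normal, 2.73-fold higher in IMQ+celastrol than in IMQ (2.25 to 3.33). Adventitial-like cells made up more of the treated classes, with 292, 319 and 85 cells in IMQ+celastrol, IMQ and normal, and their part in the pooled level was not tested.

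DKK1 and DKK2 bind LRP5 and LRP6, and DKK1 is the best studied of the WNT co-receptor blockers in skin. Dkk1 was the rarest member by UMI count and lay almost wholly in 1 cluster of 1 library. Fibroblast-like cells held 1 Dkk1 UMI in IMQ+celastrol, 2 in IMQ and 137 in normal, and IMQ was 159.7-fold lower than normal (43.4 to 1332; log2 ratio -3.34). That fold rests on IMQ UMIs under the floor of 3, and with 10 CPM added the log2 ratio was -0.97, short of 2-fold. Of the 137 normal UMIs 99.3% lay in dermal sheath-like cells, where Dkk1 stood at 25.4 CPM [21.3 to 30.04] and was seen in 79 of 718 cells, or 3.59% of cells at 2000 UMIs. The same cluster held 1 UMI in 268 IMQ+celastrol cells and none in 86 IMQ cells, and against the floor of 3 UMIs the IMQ level was at least 4.50-fold lower than normal. This cluster held 38.1% of all fibroblast-like UMIs in normal and 1.62% in IMQ. The part of that mix in the pooled fold was not tested. T cell-like cells held no Dkk1 UMI in any library, and neither did dermal papilla-like cells.

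Dkk2 was a gene of papillary-like fibroblasts and of the Slc26a7 clusters. Over fibroblast-like cells its levels were close, at 166 CPM in IMQ+celastrol, 135 CPM in IMQ and 162 CPM in normal, with ratios of 1.23 for IMQ+celastrol over IMQ and 0.834 for IMQ over normal. In papillary-like cells Dkk2 was 755 CPM in IMQ+celastrol [728 to 782], 849.5 CPM in IMQ [781 to 922] and 473 CPM in normal [447 to 499.7], and the IMQ over normal ratio of 1.80 (1.63 to 1.99) stayed under 2-fold. The treated intervals meet each other and lie above the normal one. A UMI was seen in 85.8%, 78.8% and 63.2% of papillary-like cells in IMQ+celastrol, IMQ and normal, and in 61.7%, 61.1% and 50.5% at 2000 UMIs, against at most 1.16% of T cell-like cells. Papillary-like cells numbered 429, 99 and 544 in that order, and cluster 7 held 68.9% of fibroblast-like Dkk2 UMIs in IMQ skin at 505 CPM.

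In the Slc26a7 clusters Dkk2 was higher in IMQ+celastrol than in IMQ. It was 1146 CPM in IMQ+celastrol (4622 UMIs), 462 CPM in IMQ (711 UMIs) and 272 CPM in normal (51 UMIs), 2.48-fold higher in IMQ+celastrol than in IMQ (2.29 to 2.69). The IMQ over normal ratio was 1.70 (1.28 to 2.30). Intervals of the 3 libraries do not meet, and a UMI was seen in 71.3%, 54.7% and 47.6% of the cells, or 69.3%, 43.1% and 37.0% at 2000 UMIs. In cluster 38 alone, whose cells held median UMI counts of 41467 in IMQ+celastrol and 37054 in IMQ, the levels were 1271 CPM and 504 CPM, a ratio of 2.52 (2.28 to 2.79). In cluster 16 alone they were 805, 409 and 272 CPM in IMQ+celastrol, IMQ and normal, and the IMQ+celastrol over IMQ log2 ratio of 0.98 fell short of 2-fold. Papillary-like cells and these clusters changed places in order: the Slc26a7 clusters were above papillary-like cells in IMQ+celastrol and below them in IMQ and normal, with intervals that do not meet. In dermal papilla-like cells of normal skin Dkk2 stood at 24.1 CPM.

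DKK3 shares the DKK fold but is not known to block LRP5 or LRP6 in the way DKK1 does. Dkk3 was spread over fibroblasts, Schwann-like cells and follicle keratinocytes. In fibroblast-like cells it was 65.7 CPM in IMQ+celastrol, 69.4 CPM in IMQ and 51.6 CPM in normal, and neither comparison reached 2-fold. In dermal sheath-like cells it was 106 CPM in IMQ+celastrol [92.1 to 120.4], 192 CPM in IMQ [157 to 233] and 49.1 CPM in normal [43.3 to 55.4], 3.91-fold higher in IMQ than in normal (3.08 to 4.93). In the Apod-high-like cluster the direction against normal was the opposite, with 43.2 CPM in IMQ+celastrol, 60.6 CPM in IMQ and 138 CPM in normal. IMQ was 2.28-fold lower than normal there (1.56 to 3.24). In remodelling-like cells Dkk3 was 114 CPM in IMQ+celastrol and 55.4 CPM in IMQ, 2.05-fold higher (1.82 to 2.31), and that cluster held 3 normal cells. Outer root sheath or bulge-like cells had 80.6, 139.7 and 45.6 CPM in IMQ+celastrol, IMQ and normal, 3.07-fold higher in IMQ than in normal (2.30 to 4.03) on 22 IMQ cells.

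SOSTDC1, also called ectodin or WISE, binds LRP5 and LRP6 and also antagonizes BMPs. Sostdc1 belonged to the dermal papilla-like cells of normal skin and to keratinocytes of every library. In dermal papilla-like cells it was 1728 CPM [1680 to 1778] from 4869 UMIs. A UMI was seen in 73.0% of these cells and 57.9% at 2000 UMIs, against 0.737% and 0.177% of T cell-like cells. Of the 503 dermal papilla-like cells 331 held UMIs of both Wif1 and Sostdc1, and 245 of both Sostdc1 and Bmp4. In the Slc26a7 clusters Sostdc1 was 114 CPM in IMQ+celastrol, 156 CPM in IMQ and 37.4 CPM in normal, 4.17-fold higher in IMQ than in normal on 7 normal UMIs (1.99 to 10.5). With the dermal papilla-like cells counted in, normal stood at 1623 CPM and IMQ was 10.4-fold lower than normal (9.15 to 11.9). Those added cells were all normal, so this ratio sets treated Slc26a7 clusters mostly against normal dermal papilla-like cells.

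In each of the keratinocyte classes Sostdc1 was lower in IMQ than in the other 2 libraries. Outer root sheath or bulge-like cells had 220.4 CPM in IMQ+celastrol [175 to 273], 73.2 CPM in IMQ [50.4 to 103] and 223 CPM in normal [212 to 235], 3.05-fold lower in IMQ than in normal (2.16 to 4.45). Upper follicle-like cells had 264 CPM in IMQ+celastrol, 134 CPM in IMQ and 253 CPM in normal; IMQ+celastrol was 1.97-fold the IMQ level (1.85 to 2.10) and IMQ was 0.530 of normal (0.485 to 0.579), both short of 2-fold. Cluster 10, which holds most of the treated cells, had 261, 134 and 288 CPM in the same order, the last from 18 normal cells. Basal keratinocyte-like cells had 173 CPM in IMQ+celastrol, 83.5 CPM in IMQ and 107 CPM in normal, 2.08-fold higher in IMQ+celastrol than in IMQ (1.97 to 2.19), a call lost in 4 of 12 alternatives with log2 ratios down to 0.66. Suprabasal keratinocyte-like cells had 13.5, 6.61 and 31.0 CPM in IMQ+celastrol, IMQ and normal, 4.69-fold lower in IMQ than in normal (3.62 to 6.07), which again sets the treated cluster 9 against the normal cluster 26.

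The basal class was filled from different clusters. In normal skin 987 of 1413 basal cells lay in cluster 5, while the treated cells lay mostly in clusters 13 (332 and 353 cells), 17 (530 and 13) and 19 (257 and 93) of IMQ+celastrol and IMQ. Within cluster 19 Sostdc1 was 449.7 CPM in IMQ+celastrol, 203 CPM in IMQ and 581 CPM in normal, and within cluster 13 it was 168, 64.7 and 208 CPM. Within cluster 17 the order was another, at 43.5, 67.4 and 82.1 CPM. Median depths of basal cells were 26332, 45297 and 8365 UMIs.

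**Figure D3:**
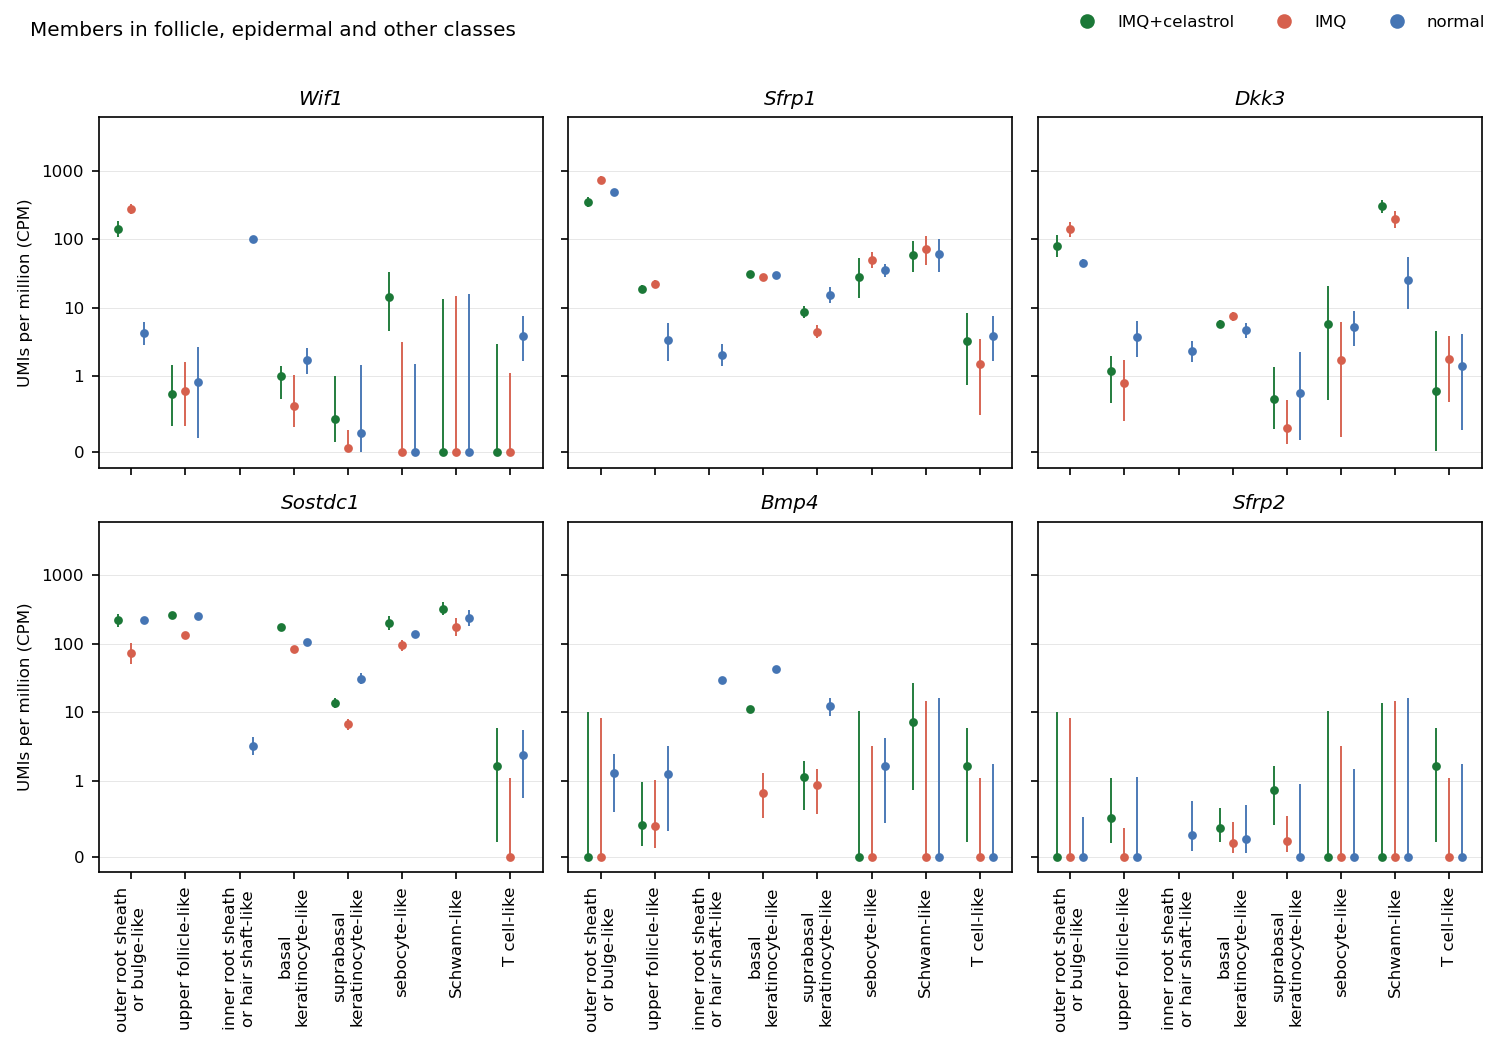
Level of Wif1, Sfrp1, Dkk3, Sostdc1, Bmp4 and Sfrp2 (CPM, y axis linear below 1 and logarithmic above) in follicle, epidermal, sebocyte-like, Schwann-like and T cell-like classes, for IMQ+celastrol, IMQ and normal, with 95% exact Poisson intervals. Sostdc1 in outer root sheath or bulge-like cells sits at 220.4 CPM in IMQ+celastrol, 73.2 CPM in IMQ and 223 CPM in normal.

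Wif1 also appeared in follicle keratinocytes. Inner root sheath or hair shaft-like cells, the inner layers of a growing follicle, were nearly all normal (1099 cells, against 1 in each treated library) and held Wif1 at 102 CPM, in 22.7% of cells or 12.8% at 2000 UMIs. In outer root sheath or bulge-like cells Wif1 was 142 CPM in IMQ+celastrol (53 UMIs), 279 CPM in IMQ (126 UMIs) and 4.28 CPM in normal (30 UMIs), 65.2-fold higher in IMQ than in normal (43.5 to 100.6). The share with a UMI was 57.9%, 63.6% and 2.42%, and at 2000 UMIs 22.2%, 31.8% and 0.765%. Dermal papilla markers in these cells summed to 51.1, 8.87 and 21.3 CPM in IMQ+celastrol, IMQ and normal, with 5, 8 and 1 of the 9 at 0, and fibroblast markers to 148, 71.0 and 78.6 CPM. Their part in the Wif1 level was not tested.

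BMP4 is a ligand of the BMP receptors. Bmp4 lay in dermal papilla-like cells, the Slc26a7 clusters, fibroblasts and basal keratinocytes. In dermal papilla-like cells of normal skin it was 313 CPM [293 to 335], with a UMI in 68.4% of cells and 42.7% at 2000 UMIs, below the Slc26a7 clusters of that library. In the Slc26a7 clusters it was 476 CPM in IMQ+celastrol [455 to 498], 336 CPM in IMQ [307 to 366] and 475 CPM in normal [381 to 585]. IMQ was lower than both others, whose intervals overlap, and IMQ+celastrol over IMQ was 1.42 (1.29 to 1.57), under 2-fold. A Bmp4 UMI was seen in 61.2%, 46.5% and 66.7% of these cells, and in 45.6%, 37.2% and 54.3% at 2000 UMIs, against at most 0.58% of T cell-like cells. Cells with both Dkk2 and Bmp4 numbered 205 of 394 in IMQ+celastrol, 72 of 243 in IMQ and 20 of 63 in normal. All 63 normal cells lay in cluster 16. Cluster 38 held 1523 of the 1919 Bmp4 UMIs of IMQ+celastrol and 347 of the 517 of IMQ, at 516 and 406 CPM, a ratio of 1.27 (1.13 to 1.43). The comparisons with normal therefore set both clusters against cluster 16 alone.

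In basal keratinocyte-like cells Bmp4 was 10.99 CPM in IMQ+celastrol (381 UMIs), 0.834 CPM in IMQ (19 UMIs) and 42.5 CPM in normal (549 UMIs). IMQ was 51.0-fold lower than normal (32.3 to 85.3), and IMQ+celastrol was 13.2-fold higher than IMQ (8.32 to 22.1) and 3.87-fold lower than normal (3.39 to 4.42). The clusters that make up the class differ in Bmp4. Of the IMQ cells 353 of 459 lay in cluster 13 and 0 in cluster 5, so the IMQ over normal ratio largely sets different clusters against each other. Cluster 5, the main normal cluster, had 18.7 CPM in IMQ+celastrol, from 4 UMIs in 12 cells, and 52.4 CPM in normal, from 427 UMIs in 987 cells. Cluster 17, which held 530 IMQ+celastrol cells and 13 IMQ cells, had 18.7, 6.42 and 17.5 CPM in IMQ+celastrol, IMQ and normal, from 248, 2 and 10 UMIs. In cluster 13 the levels were 7.53, 0.878 and 4.63 CPM in the same order, from 110, 17 and 1 UMIs, the last in 10 cells. In suprabasal keratinocyte-like cells Bmp4 was 1.14 CPM in IMQ+celastrol, 0.944 CPM in IMQ and 12.1 CPM in normal, 12.8-fold lower in IMQ than in normal (7.32 to 23.5), from 13, 18 and 47 UMIs. All IMQ cells there lay in cluster 9 and nearly all normal cells in cluster 26, so a change within a cluster could not be read.

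In fibroblast-like cells Bmp4 was 25.4 CPM in IMQ+celastrol, 26.3 CPM in IMQ and 38.7 CPM in normal, 1.47-fold lower in IMQ than in normal (1.32 to 1.64). Its direction differed by subset. Dermal sheath-like cells had 30.1, 32.0 and 8.59 CPM in IMQ+celastrol, IMQ and normal, 3.72-fold higher in IMQ than in normal (2.002 to 6.62) on 17 IMQ UMIs. Cluster 2 had 17.4, 29.9 and 65.5 CPM, 2.19-fold lower in IMQ than in normal (1.59 to 2.99).

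Counted over the members, fibroblast-like cells gave 0 higher and 3 lower of 9 for IMQ over normal, the 3 being Wif1, Dkk1 and Sfrp2, with a median log2 ratio of -0.36. Of all genes tested there, 5.03% were higher and 6.07% lower, with a median of -0.0018. For IMQ+celastrol over IMQ 2 of 8 members were higher, Wif1 and Sfrp2, and 0 were lower, with a median of 0.37, against 2.09% higher and 1.4% lower of all genes with a median of 0.13. In the Slc26a7 clusters 2 of 7 members were higher for IMQ over normal, Wif1 and Sostdc1, and 0 lower, with a median of 0.76, against 22% higher and 4.95% lower of all genes with a median of 0.22. For IMQ+celastrol over IMQ 1 of 7, Dkk2, was higher and 0 lower, against 2.3% higher and 2.98% lower of all genes, with medians of 0.14 over members and -0.037 over all genes. The shares of members in the Slc26a7 clusters for IMQ over normal are near those of all genes. Wif1 and Sostdc1 were both lower in IMQ than in normal once the dermal papilla-like cells were counted in with these clusters. That step adds cells to the normal library alone.

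**Figure D4:**
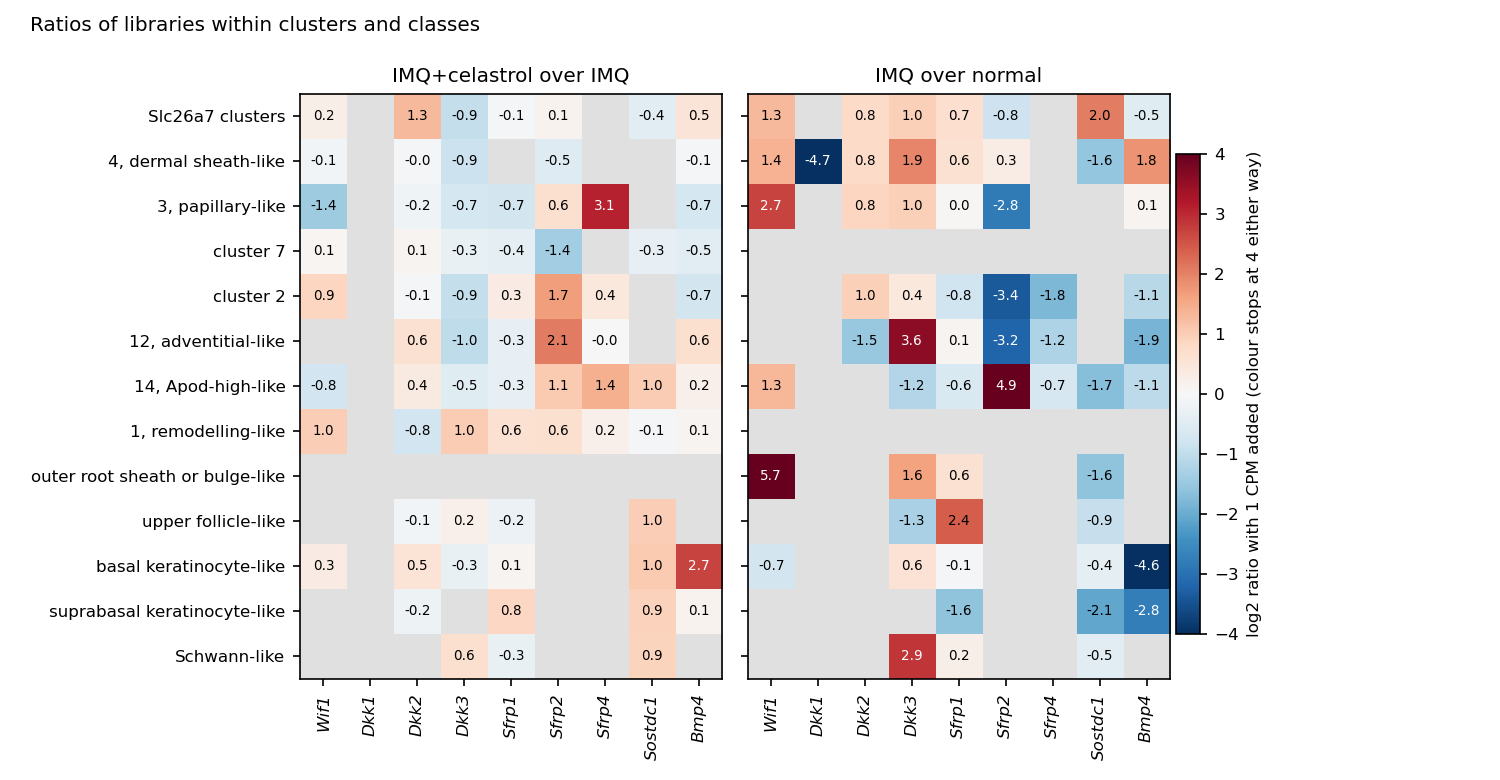
Log2 ratio (1 CPM added) of each member by class, for IMQ over normal and IMQ+celastrol over IMQ, with grey where cells or UMIs were too few and the colour scale ending at 4. In dermal sheath-like and papillary-like cells Wif1 was higher in IMQ than in normal, while over all fibroblast-like cells it was -1.71.

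The surrounding pathway was read from 9 lists of WNT and BMP genes in fibroblast-like cells. These are pooled levels of a class whose clusters were unequally filled. Cluster 0 held 11 IMQ and 1207 normal cells, cluster 4 held 86 and 718, and cluster 7 held 848 and 1. How much of any pooled difference, here and below, comes from the mix of clusters was not tested. For IMQ over normal 3 of 79 were higher and 16 lower with a median log2 ratio of -0.20, and for IMQ+celastrol over IMQ 6 of 80 were higher and 0 lower with a median of 0.21. The shares of all genes there were 5.03% higher and 6.07% lower for IMQ over normal. For IMQ+celastrol over IMQ they were 2.09% higher and 1.4% lower. The 3 of 79 higher is near the share of all genes. These shares are also the background for each list in fibroblast-like cells below. Among WNT ligands for IMQ over normal 1 of 10 was higher and 4 lower. Wnt5a, a ligand mostly of beta-catenin-independent signalling, was 28.0 CPM in IMQ and 87.8 CPM in normal, 3.13-fold lower (2.88 to 3.42), and Wnt16 was 7.39 CPM in IMQ and 2.42 CPM in normal, 3.05-fold higher (2.13 to 4.51). Of 6 other secreted or surface WNT inhibitors 4 were lower in IMQ. Sost, the gene of sclerostin and a relative of Sostdc1, was 0.275 CPM in IMQ and 5.48 CPM in normal, 19.9-fold lower (9.98 to 45.3). Frzb, Notum and Apcdd1 were lower by 6.84-fold, 7.68-fold and 3.55-fold. No WNT receptor or co-receptor of 15 was called in either comparison. Of 7 genes tested from the list of R-spondins, which strengthen WNT signals, and their receptors, 2 were lower in IMQ than in normal. These were Lgr6, by 15.2-fold, and Rspo4, by 2.24-fold. In IMQ+celastrol over IMQ 2 of 11 WNT ligands were higher. Wnt2 was 13.5 CPM in IMQ+celastrol and 3.60 CPM in IMQ, 3.74-fold higher (3.01 to 4.66), and Wnt10a was 2.75 CPM and 0.366 CPM, 7.50-fold higher (3.997 to 15.3). Rspo4 was 10.3 CPM in IMQ+celastrol and 4.09 CPM in IMQ, 2.51-fold higher (2.02 to 3.13), and 0 of the 6 other inhibitors was called.

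Of 11 WNT target genes 0 were higher and 2 lower in IMQ than in normal, and 2 were higher in IMQ+celastrol than in IMQ. These were the same genes, the cell cycle gene Ccnd1 and the feedback inhibitor Nkd1. Ccnd1 was 44.1 CPM in IMQ+celastrol, 12.8 CPM in IMQ and 76.2 CPM in normal. Nkd1 was 22.5 CPM in IMQ+celastrol, 9.12 CPM in IMQ and 32.0 CPM in normal. Axin2, a widely used WNT target, was 12.2 CPM in IMQ and 18.2 CPM in normal and was not called. Both comparisons share the IMQ library, so a gene low in it moves both.

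Among 9 BMP antagonists 2 were higher and 1 lower in IMQ than in normal. Fst, the gene of follistatin, was 195 CPM in IMQ and 53.4 CPM in normal, 3.66-fold higher (3.40 to 3.96), and Chrdl1 was 2.11-fold higher (1.84 to 2.43). Nog, the gene of noggin, was 2.29 CPM in IMQ and 12.5 CPM in normal, 5.44-fold lower. In IMQ+celastrol against IMQ no antagonist was called, with Fst at 119 CPM in IMQ+celastrol and 195 CPM in IMQ. Of 8 BMP target genes 1, Msx2, was 4.25-fold lower in IMQ than in normal and none was called for IMQ+celastrol over IMQ. The BMP targets Id1, at 30.6 CPM in IMQ and 57.6 CPM in normal, and Id3, at 569.8 CPM in IMQ and 856.5 CPM in normal, did not reach 2-fold. Of 7 other BMP ligands 2 were lower in IMQ than in normal, Bmp3 by 6.72-fold and Bmp6 by 4.38-fold, and Bmp5 was higher in IMQ+celastrol than in IMQ, at 10.9 CPM and 3.91 CPM. No BMP receptor was called in either comparison, of 6 tested for IMQ over normal and 7 for IMQ+celastrol over IMQ. Of the lists' genes, 14 of 60 in the Slc26a7 clusters were higher and 8 lower for IMQ over normal, and 1 of 69 was higher and 3 lower for IMQ+celastrol over IMQ. The share higher for IMQ over normal is near the 22% of all genes there. Both shares for IMQ+celastrol over IMQ are near those of all genes, 2.3% higher and 2.98% lower. The 8 of 60 lower for IMQ over normal lie above the 4.95% of all genes, and the reason was not tested.

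**Figure D5:**
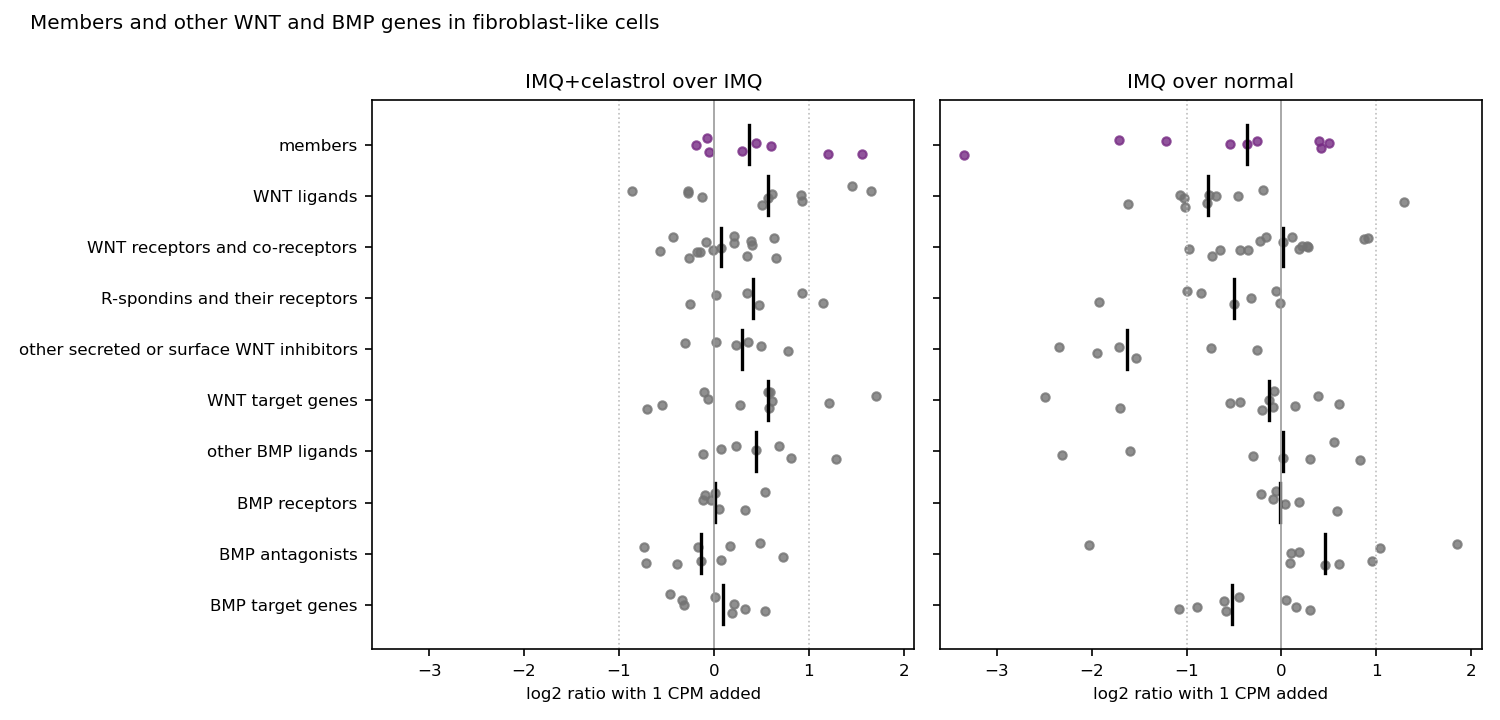
Log2 ratio (1 CPM added, x axis) in fibroblast-like cells of the members and of 9 lists of WNT and BMP genes, 1 dot per gene, with a black bar at each list's median and dotted lines at 2-fold. For IMQ over normal 16 of 79 listed genes lie below the lower line and 3 above the upper, and for IMQ+celastrol over IMQ 0 below and 6 above. The shares of all genes were 6.07% lower and 5.03% higher for IMQ over normal, and 1.4% lower and 2.09% higher for IMQ+celastrol over IMQ.

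Likeness of pattern was described by Pearson's r of log2 CPM over 80 profiles, each a cluster in a library, which share libraries and depth. Wif1 was most like Lamc3 at 0.87 and Alx4 at 0.86, and Dkk2 most like Tmem132c at 0.88 and Lamc3 at 0.87. Dkk1 was most like Adamts18 at 0.80, Dkk3 most like Fzd1 at 0.84, and Sfrp1 most like Cxcl14 at 0.73. Sfrp2 was most like 6030419C18Rik at 0.86, Sfrp4 most like Inmt at 0.96, Sostdc1 most like Ephb6 at 0.78 and Bmp4 most like Sobp at 0.81. Between members r was highest for Sfrp2 with Sfrp4 and for Wif1 with Dkk2, both 0.70, and lowest for Sfrp4 with Sostdc1 at -0.18.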

How the data were processed

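The authors deposited 3 matrices with the count of UMIs for each gene and barcode. Per the file headers they came from Cell Ranger 4.0.0, and the submitters' processing notes list mm10 and GRCm38. How barcodes were called is not given in the sources used here; none held under 500 UMIs.

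Barcodes with fewer than 300 genes (187, 131 and 66, in the same order) or with over 20% mitochondrial UMIs (310, 167 and 113) were left out. Scrublet called 88, 1 and 213 doublets, too few in IMQ, so the top scores were left out in every library at 0.8% per 1000 cells (330, 513 and 870 cells). Counts scaled to 10000 per cell were clustered on 2000 variable genes without the members, using 30 components, 15 neighbours and Leiden resolution 1, with no integration. A cluster was named from 26 marker lists if at least 3 markers were detected in 10% of its cells. A cluster whose median UMI count was under 1/3 of that of its own samples, with no marker of the name among its top 10 genes, stayed unnamed. Counts were summed per class and library. Shares of cells are given raw and thinned to 2000 UMIs. Ratio intervals are exact conditional binomial intervals at 95%.

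Genes named are the 9 members, the 2 genes most like each in profiles of at least 50 cells, and per list up to 4 with the largest ratios. Members, lists and markers were chosen with earlier results of these data known. Alternatives concerned doublets, variable genes, resolution, separate clustering, mitochondrial share, added CPM, averaging over cells, centring and UMI minimum; 3 more, which count the dermal papilla-like and Slc26a7 clusters as fibroblast-like or leave out cluster 38 or cluster 16, were chosen after seeing the data. The ratio and call functions were tested on simulated data. Python 3.11.15, numpy 2.4.6, scipy 1.17.1, pandas 2.3.3, scanpy 1.11.5, anndata 0.12.19, scikit-learn 1.9.0, python-igraph 0.11.9, leidenalg 0.10.2 and matplotlib 3.10.9 were used. Centring on the median of all genes shifts log2 ratios by 0.13 for IMQ+celastrol over IMQ in fibroblast-like cells and by 0.22 for IMQ over normal in the Slc26a7 clusters.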

Additional observations from a re-analysis of the deposited data

Results flagged for a closer look

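The same member went opposite ways in different fibroblast clusters, or in the Slc26a7 clusters, when IMQ was set over normal. The difference between clusters was not tested in any of these cases. Values are log2 ratios with 1 CPM added.

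Sfrp2 was -3.36 in cluster 2, -2.83 in the papillary-like cluster 3, on 3 IMQ UMIs, and -3.20 in the adventitial-like cluster 12, against 4.91 in the Apod-high-like cluster 14, where the normal library held no UMI in 100 cells. Dkk3 was 1.95 in the dermal sheath-like cluster 4 and -1.17 in cluster 14. Sostdc1 was 2.03 in the Slc26a7 clusters, on 7 normal UMIs, and -1.72 in cluster 14, on 18 IMQ and 6 normal UMIs. With the dermal papilla-like cells, all of them normal, counted in with the Slc26a7 clusters, Sostdc1 was -3.37. Bmp4 was 1.78 in the dermal sheath-like cluster 4, against -1.11 in cluster 2, -1.87 in the adventitial-like cluster 12 and -1.06 in cluster 14. Among these values cluster 4 rests on 17 IMQ UMIs, cluster 12 on 15 IMQ and 7 normal UMIs and cluster 14 on 9 normal UMIs.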

How the results depend on the processing

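No paired analysis was possible because each group is 1 library. Alternatives were run on 75 member ratios. These came from fibroblast-like, papillary-like, dermal sheath-like, basal keratinocyte-like and upper follicle-like cells and the Slc26a7 clusters. Ratios of outer root sheath or bulge-like, suprabasal, Schwann-like, adventitial-like and Apod-high-like cells and of cluster 2 were not among them. Of the 75 ratios 22 were past 2-fold. Of these, 21 kept their direction in every alternative and 9 stayed past 2-fold. The exception was Dkk3 in upper follicle-like cells for IMQ over normal, -1.30 as reported and 0.46 with each library clustered by itself.

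In fibroblast-like cells, the count of members lower in IMQ than in normal, 3 as reported, was 5 with each library clustered by itself, 1 with 10 CPM added and 5 with the dermal papilla-like and Slc26a7 clusters counted in. Listed pathway genes, 3 higher and 16 lower as reported, numbered 1 and 4 with 10 CPM added, and 25 were lower with those clusters counted in. For IMQ+celastrol over IMQ the 2 higher members became 1 with doublets kept, Scrublet calls, resolution 2, 10 CPM added or a mean over cells, and 4 with those clusters counted in. The 6 higher pathway genes became 1 with 10 CPM added and 16 with those clusters counted in, and the 0 lower became 1 with doublets kept, resolution 2 or separate clustering. In the Slc26a7 clusters the 0 members lower in IMQ than in normal became 1 with doublets kept or centring and 2 with members among the variable genes. For IMQ+celastrol over IMQ the 1 higher member became 2 with members among the variable genes and 0 with a mean over cells or without cluster 38, and the 0 lower became 1 under each of these. The causes were not tested. Settings that left too few cells or UMIs gave no value.

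The log2 ratio of fibroblast-like Wif1 ranged from -3.91 to -0.61 for IMQ over normal and from 0.05 to 2.37 for IMQ+celastrol over IMQ, so its call depends on the settings. Sfrp2 for IMQ+celastrol over IMQ ranged from 1.30 to 1.69, basal keratinocyte-like Bmp4 for IMQ over normal from -4.67 to -2.28 and papillary-like Wif1 from 1.86 to 3.33, past 2-fold in each setting that gave a value. Depth limits low members most: Dkk1 rests on 137 normal UMIs.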

Other observations

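Members were also seen outside the dermal and follicle classes. In Schwann-like cells, the glia of skin nerves, Dkk3 was 306 CPM in IMQ+celastrol (84 UMIs), 195 CPM in IMQ (49 UMIs) and 25.7 CPM in normal (6 UMIs), 7.57-fold higher in IMQ than in normal (3.24 to 21.6). Sostdc1 in the same cells was 324, 175 and 240 CPM in IMQ+celastrol, IMQ and normal, with no 2-fold difference. These classes held 82, 74 and 112 cells with median depths of 2838, 2554 and 1720 UMIs. In the unnamed cluster 36, led by Myf5 and Pax7, genes of muscle precursors, Bmp4 was 125, 99.9 and 161 CPM from 29, 32 and 9 UMIs. Dkk2 in blood endothelial-like cells was 148 CPM in IMQ+celastrol, 31.5 CPM in IMQ and 27.3 CPM in normal, from 30, 28 and 19 UMIs. The source of these UMIs was not tested.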
